A study of Mus musculus with 12 samples.

Results

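The comparison described here was the response of ISG20-knockdown EMT6 cells to low oxygen, with 3 libraries from 1% O2 set against 3 libraries from 20% O2, which made 6 of the 12 RNA-seq libraries of the series. EMT6 is a mouse breast cancer line. The cells of all 6 libraries were of a subclone that carried a short hairpin RNA against ISG20 (shISG20), an interferon-induced exonuclease. The other 6 libraries were of a control subclone (shNTC), 3 at 1% O2 and 3 at 20% O2, and are used here only to show where the responses differed. All cells were grown in Waymouth's medium with fetal bovine serum, glutamine and antibiotics, and were kept at their oxygen level for 48 hours, except that replicate 3 of the shISG20 cells at 20% O2 is labelled 484 hours. The labels name 1 knockdown subclone and 1 control subclone, so knockdown and subclone cannot be told apart. They call the libraries biological replicates without saying whether separate cultures were grown, and the p-values cover only the spread among these libraries, which may be technical.

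Cells sense oxygen through prolyl hydroxylases, which mark the alpha subunits of hypoxia-inducible factor (HIF) for degradation as long as oxygen is present. In low oxygen the alpha subunits are spared, pair with ARNT and bind a short DNA core, ACGTG or GCGTG, near genes of glucose uptake, glycolysis, mitophagy, angiogenesis and matrix crosslinking. Low oxygen is also known to slow costly processes such as ribosome production and DNA replication.

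Promoters of the genes that led the response are shown to place this core beside the values that follow. They are the first 5 genes by log2 fold change whose mouse promoter stood in the RefSeq table of GRCm38.p6, from 250 bases before to 50 bases after the start of transcription, all on the minus strand. Capitals mark ACGTG or GCGTG on either strand. They stand at chr8:71671708-71672007 (UNC13A), chr14:51913955-51914254 (NDRG2, the first of 3 promoters in the table), chr7:138909457-138909756 (BNIP3), chr3:51396498-51396797 (MGARP) and chr6:124769624-124769923 (ENO2).
UNC13A: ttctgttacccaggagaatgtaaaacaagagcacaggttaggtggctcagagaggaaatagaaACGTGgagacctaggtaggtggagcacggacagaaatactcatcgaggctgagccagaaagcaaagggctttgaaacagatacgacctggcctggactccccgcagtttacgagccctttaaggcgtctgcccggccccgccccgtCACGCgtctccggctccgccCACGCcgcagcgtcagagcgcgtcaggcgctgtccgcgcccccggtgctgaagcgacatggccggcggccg
NDRG2: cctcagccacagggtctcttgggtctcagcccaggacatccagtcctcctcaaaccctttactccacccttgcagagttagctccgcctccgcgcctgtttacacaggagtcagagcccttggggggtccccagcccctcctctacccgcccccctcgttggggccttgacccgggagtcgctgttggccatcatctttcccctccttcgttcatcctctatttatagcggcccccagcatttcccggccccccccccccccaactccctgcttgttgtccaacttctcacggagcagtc
BNIP3: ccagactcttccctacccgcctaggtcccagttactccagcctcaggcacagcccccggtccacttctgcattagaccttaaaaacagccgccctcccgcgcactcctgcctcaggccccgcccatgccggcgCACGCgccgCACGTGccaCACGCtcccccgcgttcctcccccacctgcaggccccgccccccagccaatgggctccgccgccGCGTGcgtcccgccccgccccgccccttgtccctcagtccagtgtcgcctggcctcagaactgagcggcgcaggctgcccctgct
MGARP: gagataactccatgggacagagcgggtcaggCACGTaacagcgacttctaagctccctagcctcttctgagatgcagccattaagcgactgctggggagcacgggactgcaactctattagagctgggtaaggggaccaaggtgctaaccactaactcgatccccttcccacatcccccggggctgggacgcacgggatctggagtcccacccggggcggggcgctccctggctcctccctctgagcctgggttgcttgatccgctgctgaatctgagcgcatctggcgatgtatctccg
ENO2: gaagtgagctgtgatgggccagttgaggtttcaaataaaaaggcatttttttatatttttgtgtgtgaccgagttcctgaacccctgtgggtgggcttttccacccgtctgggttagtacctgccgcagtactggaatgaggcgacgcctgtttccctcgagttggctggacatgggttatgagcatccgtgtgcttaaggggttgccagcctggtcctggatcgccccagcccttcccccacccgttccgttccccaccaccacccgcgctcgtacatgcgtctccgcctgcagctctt
BNIP3 had 5 matches in this window, of which 2 were the opposite strands of a single palindrome, CACGTG. UNC13A had 3 matches and MGARP 1, and no match was found in the windows of NDRG2 and ENO2. Such a short core is common: it occurred in 43.8% of the 32851 promoters of the table and in 64.7% of the 8547 promoters of tested genes. Its share was 64.7% of the 430 promoters of genes higher at 1% O2 by a log2 of 1 or more, and 65.6% of the 2015 promoters of genes lower by as much. A match here is a description of the letters in the window and not a measured binding site.

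Values were TPM (transcripts scaled for length and library), which the authors had set to a sum of 1000000 per library. The rows are human genes of GRCh38 although the cells are mouse, so levels cannot be compared between genes, and a gene listed at 0 may be one whose mouse reads did not align. The reads recovered from the TPM steps summed to 3173991 to 3779498 per library at 1% O2 and 3251090 to 5201799 at 20% O2. A row entered the test where 3 or more of the 6 libraries reached 1 TPM, which held for 13355 of 60683 rows, of which 8192 matched a mouse gene by name. In a principal component analysis of the 6 libraries the oxygen levels lay apart on the first component, which took 71% of the variance. Replicates of a group had a median SD of 0.17 at 1% O2 and 0.149 at 20% O2 on the log2(TPM + 1) scale.

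ISG20 (ENSG00000172183), the gene targeted, stood at 0.413, 0.595 and 0.690 TPM in the 3 shISG20 libraries at 1% O2 (19 reads in all) and at 0.215, 0.135 and 0.323 TPM in those at 20% O2 (7 reads). These levels were too low to enter the test. The shNTC means were 8.28 ± 0.623 TPM at 1% O2 and 2.46 ± 0.372 TPM at 20% O2 (SD, n = 3), above every shISG20 library. Of 17 leucocyte markers 15 were at 0 in all 6 shISG20 libraries, PTPRC among them, and the summed level of the list was 1.61 to 3.88 TPM at 1% O2 and 0.15 to 0.62 TPM at 20% O2. The detected leucocyte marker was mainly CSF1R, the receptor of the growth factor CSF1, with 44 reads at 1% O2 against 1 at 20% O2 (a ratio of 48.4, exact 95% interval 8.24 to 1953, counting error only). Of 8 endothelial markers 6 were at 0 in all 6 libraries, and of 6 fibroblast markers 4. Of the markers of breast carcinoma cells, CDH1, the epithelial cadherin, was at 0 in all 6 libraries. EPCAM had 4 and 1 reads at 1% and 20% O2, and keratins were measured. Of the mesenchymal markers, CDH2, a cadherin, was likewise at 0 in all 6 libraries. VIM was at 8046 ± 66.5 TPM at 1% O2 and 1827 ± 107 TPM at 20% O2, and ZEB1 at 0.344 ± 0.0632 and 2.53 ± 0.263 TPM (SD, n = 3). In such bulk samples fewer cells of a type and less RNA per cell cannot be told apart.

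Hypoxia moved most of the transcriptome of shISG20 cells. By limma 2002 rows (15.0%) were higher at 1% O2 and 6073 (45.5%) lower, at a Benjamini-Hochberg adjusted p under 0.05 over all 13355 rows. Changes of at least 1 on the log2 scale were called upward in 753 rows (5.64%) and downward in 2696 (20.2%). Among rows that match a mouse gene 1270 (15.5%) were higher and 4624 (56.4%) lower, and among the others 732 (14.2%) and 1449 (28.1%). The split of directions depends on the scaling, since the median of all rows was -0.358 as TPM. Median-of-ratios size factors, which by construction bring the median near 0, gave 0.006, at which 3747 rows (28.1%) were higher and 3800 (28.5%) lower. Quantile normalization, which equalizes the distributions, gave a median of -0.032 with 3332 rows (24.9%) higher and 3979 (29.8%) lower. All 2002 rows called higher as TPM were also called higher with size factors, 3800 rows were lower on both scales, and 143 (1.07%) were lower as TPM but higher with size factors. The size factors were 0.838 to 0.882 at 1% O2 and 1.13 to 1.15 at 20% O2, so they moved fold changes upward. A rise as TPM that stays a rise with size factors is therefore no independent support, here or in the lists below. A few abundant rows took more of the TPM at 1% O2. TMSB10 gained 2.15 percentage points, and the 20 rows with the largest gain gained 7.17 points together. Rows that match a mouse gene held only 45.49% to 46.45% of the TPM at 1% O2 and 48.25% to 49.01% at 20% O2. All rows with no mouse match together gained 2.69 points at 1% O2, more than TMSB10. Without the 50 most abundant rows and those of the mitochondrial genome, 13638 rows passed the filter after rescaling. Their median was still -0.29, with 2327 rows higher and 5633 lower. With TPM rescaled to rows that match a mouse gene, 8882 rows passed, and the median was -0.433, with 1621 rows higher and 4732 lower. Which scale is nearer to RNA per cell was not tested. Fold changes below are on the log2(TPM + 1) scale as deposited, to be read against the median of -0.358. Counts of list members that rose or fell are likewise to be read against the shares of all rows and of mouse-matched rows given here.

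**Figure D1:**
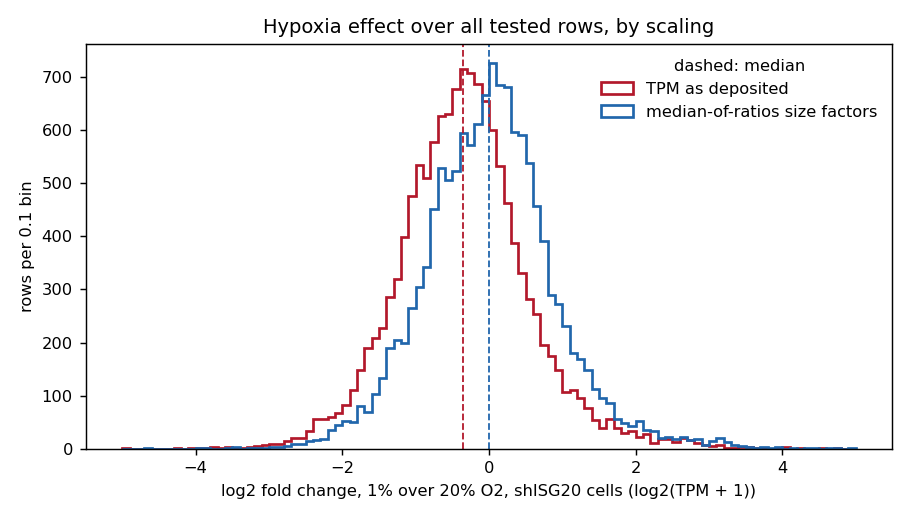
Number of rows by their log2 fold change of 1% over 20% O2 in shISG20 cells, in bins of 0.1, for TPM as deposited and after median-of-ratios size factors. The dashed medians stand at -0.358 for TPM and at 0.006 after size factors.

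The genes that gained most TPM were TMSB10, GAPDH, VIM and PGK1. TMSB10, a thymosin that binds actin monomers, was at 27382, 25857 and 27549 TPM at 1% O2, against 5346, 5150 and 5855 TPM at 20% O2, a change of 2.31 on the log2(TPM + 1) scale (SE 0.0458, limma adjusted p = 3.24e-11). GAPDH, a glycolytic enzyme, was at 9515, 9438 and 9145 TPM, against 1451, 1436 and 1452 TPM (2.69). VIM, the intermediate filament vimentin, was at 8062, 8103 and 7973 TPM, against 1847, 1711 and 1923 TPM (2.14). In each of them every library at 1% O2 stood far above every library at 20% O2, and the 3 replicates of a group lay close together. The largest losses in TPM among rows that match a mouse gene were those of RPS12, described with the ribosomal proteins, and CNBP, a nucleic acid-binding zinc-finger protein, with 679 ± 17.1 TPM at 1% O2 and 1876 ± 16.6 TPM at 20% O2 (SD, n = 3; -1.46).

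Among the genes with the highest fold changes, UNC13A (ENSG00000130477), which primes synaptic vesicles in neurons, was at 31.9, 39.9 and 29.5 TPM at 1% O2, against 1.10, 0.650 and 1.38 TPM at 20% O2, a change of 4.09 on the log2(TPM + 1) scale. NDRG2 (ENSG00000165795), of the N-myc downstream-regulated family, was at 27.3, 28.3 and 26.8 TPM, against 0.715, 0.321 and 1.23 TPM (4.05). Both were thus nearly silent in the shISG20 libraries at 20% O2. BNIP3 (ENSG00000176171), a mitophagy receptor on the outer mitochondrial membrane, was at 95.1, 103 and 86.4 TPM, against 5.79, 3.64 and 5.07 TPM (4.05). ENO2, a glycolytic enolase, rose by 3.71, SLC2A1, the glucose transporter GLUT1, by 3.56, and ALDOC, an aldolase, by 3.56. EGLN3, one of the prolyl hydroxylases that act on HIF, rose by 3.43, KRT19, a keratin, by 3.42, and SPNS2, a transporter of sphingosine-1-phosphate, by 3.41. MGARP, a mitochondrial protein, had 71 reads at 1% O2 and 0 at 20% O2, at least 26.0-fold higher against a floor of 3 reads per group. MIRLET7I, a let-7 microRNA locus, was also among the highest, with only 5 reads at 1% O2 against 0 at 20% O2, at least 1.83-fold higher.

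Among the genes that fell most, SLC24A3 (ENSG00000185052), an exchanger of sodium, potassium and calcium, led with 1.06, 1.09 and 1.26 TPM at 1% O2, against 59.9, 64.7 and 69.8 TPM at 20% O2 (-4.95, SE 0.107, limma adjusted p = 5.42e-11). EGR1 (ENSG00000120738), an immediate early transcription factor, was at 2.08, 5.82 and 2.92 TPM, against 87.8, 87.2 and 76.8 TPM (-4.28). Its 3 libraries at 1% O2 differed among themselves more than those at 20% O2 relative to their level, without coming near them. NOP56 (ENSG00000101361) and NOP58, core proteins of the box C/D snoRNPs that guide rRNA methylation, were at 28.3 ± 1.08 TPM against 431 ± 15.7 TPM (-3.88) and at 62.4 ± 8.11 TPM against 666 ± 17.2 TPM (-3.40; SD, n = 3 each). RRP12, an rRNA processing factor, fell by 3.79, OGN, the small proteoglycan osteoglycin, by 3.80, and IFRD2, of the interferon-related developmental regulator family, by 3.59. DGCR8, the partner of DROSHA in microRNA processing, was at 2.82 ± 0.617 TPM against 44.2 ± 2.26 TPM (-3.58). PRIM1, the catalytic subunit of DNA primase, fell by 3.35 and SLC22A23, a solute carrier, by 3.32. RGS2, a regulator of G protein signalling, had 3 reads at 1% O2 and 138 at 20% O2 (a ratio of 41.9, exact 95% interval 14 to 205). MIR708, a microRNA locus, had 0 reads against 7, at least 2.12-fold lower. The libraries of the 2 oxygen levels overlapped in none of these 23 genes, which was a condition of their choice. Over all tested rows the 1% O2 libraries lay all above in 2250 rows (16.8%) and all below in 6464 (48.4%).

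**Figure D2:**
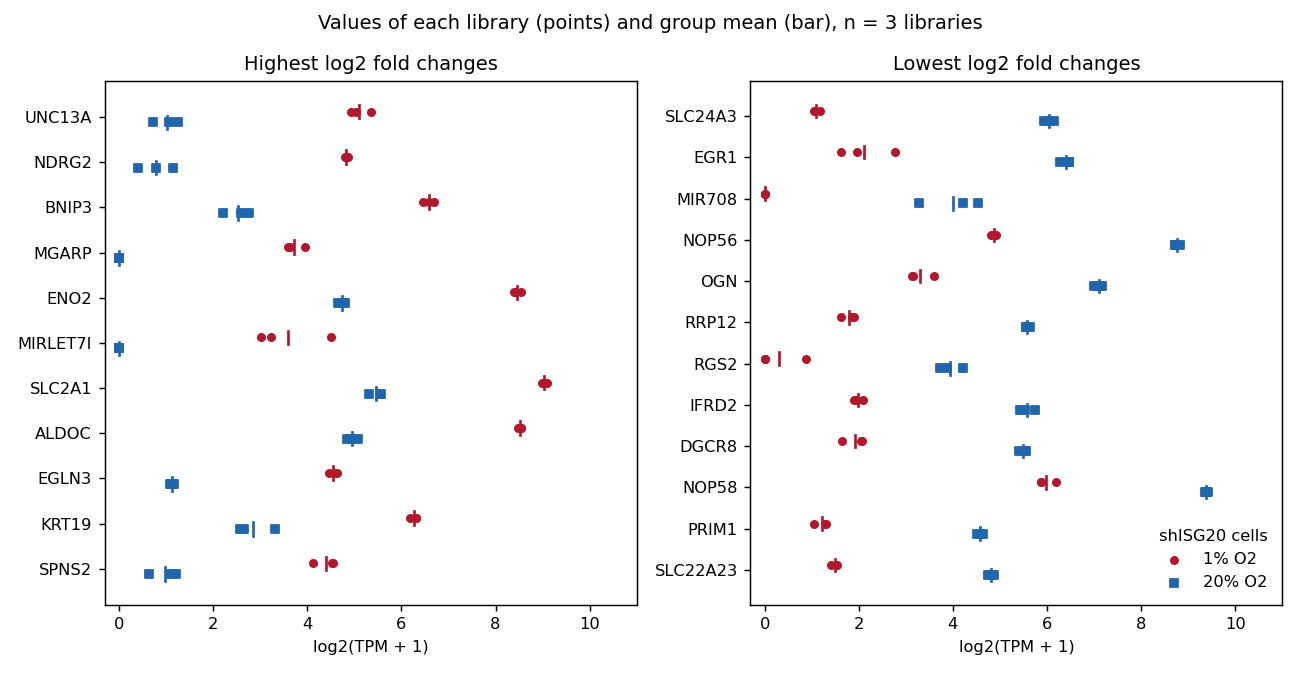
log2(TPM + 1) of each library for 11 genes at the upper and 12 at the lower end of the fold changes, with 1% O2 as red circles, 20% O2 as blue squares and the group mean as a bar (n = 3 libraries each). SLC24A3 runs from about the level of 1 TPM at 1% O2 to 59.9 to 69.8 TPM at 20% O2, and MGARP and MIRLET7I sit at 0 at 20% O2.

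Of the HIF subunits, HIF1A (ENSG00000100644) was at 70.2, 77.2 and 67.4 TPM at 1% O2, against 81.0, 84.8 and 89.5 TPM at 20% O2. Its log2 fold change was -0.25 (limma adjusted p = 0.00812) as TPM but 0.17 with median-of-ratios size factors and 0.04 by quantile normalization, and thus turned with the scaling. ARNT (ENSG00000143437), the constitutive partner, was at 59.8, 72.7 and 67.6 TPM, against 50.6, 50.5 and 52.8 TPM (0.37, adjusted p = 0.000841), and was higher on each scale. EPAS1, the other oxygen-regulated subunit, had 6 reads at 1% O2 and 5 at 20% O2 and was not tested. Of the HIF hydroxylases EGLN1 rose to 199 ± 12.6 TPM at 1% O2, against 22.8 ± 3.09 TPM at 20% O2 (3.08), and EGLN3 to 22.4 ± 1.34 TPM, against 1.18 ± 0.0723 TPM. Among all 26 tested HIF subunits and oxygen-dependent hydroxylases, which include histone demethylases, 6 rose and 14 fell (11 and 9 with size factors), around a median of -0.26. Over all rows 15.0% rose and 45.5% fell, and of those that match a mouse gene 15.5% and 56.4%. The falls of the group lay near these shares, and its median near the -0.358 of all rows. EGLN3 and EGLN1 stood at its upper end.

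Nearly the whole glycolytic pathway rose. Of 22 tested genes of glucose uptake and glycolysis 21 rose, also 21 with size factors and 22 by quantile normalization, and the median log2 fold change was 2.07, against -0.358 over all rows. PFKFB4, which did not pass as TPM (0.24), is named here after its value was seen, as are the other genes below that stand as exceptions to a count. SLC2A1 was at 524, 545 and 504 TPM at 1% O2, against 45.7, 38.5 and 46.3 TPM at 20% O2. ENO2 was at 346, 337 and 370 TPM, against 24.1, 26.5 and 27.0 TPM. ALDOC was at 372, 353 and 369 TPM, against 29.5, 27.8 and 32.8 TPM. The rises therefore reached from glucose entry through the middle of the pathway to the enolase step. PGK1, which makes the first ATP of the pathway, was at 4788 ± 108 TPM, against 1053 ± 31.4 TPM (SD, n = 3; 2.18). GAPDH and other abundant enzymes have many pseudogene rows in the table that can share their reads, so their absolute levels are uncertain.

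Among other known HIF targets 28 of 31 rose (29 with size factors), with a median of 1.88. The exceptions were TFRC (log2 fold change 0.00), KDM4C (-0.04) and HMOX1 (0.08), of which HMOX1 was called higher with size factors (0.48). ERO1A, the oxidase that drives disulfide formation in the endoplasmic reticulum, was at 247 ± 11.8 TPM at 1% O2 and 35.3 ± 0.599 TPM at 20% O2 (2.77), and BNIP3L, a second mitophagy receptor, at 390 ± 6.09 and 90.5 ± 3.89 TPM (2.10). VEGFA, the angiogenic growth factor, was at 140, 135 and 139 TPM, against 70.6, 66.9 and 69.9 TPM, a smaller rise of 0.99 (adjusted p = 2.14e-08). NOS2, inducible nitric oxide synthase, had 208 reads at 1% O2 and 2 at 20% O2 (a ratio of 114, exact 95% interval 31.2 to 950). Of 18 angiogenic and vasoactive factors 9 rose and 6 fell (10 and 5 with size factors), so VEGFA and NOS2 were not joined by the whole group. ANGPT1, the angiopoietin that activates TIE2, was at 0.121 ± 0.106 TPM at 1% O2 and 4.60 ± 0.762 TPM at 20% O2 (-2.32).

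Counts of mitochondrial genes that fell are to be read against the 45.5% of all rows and 56.4% of rows that match a mouse gene that fell as TPM, and the citric acid cycle and respiratory chain lay near these shares. Of 12 genes of the pyruvate dehydrogenase complex and its regulators 2 rose and 8 fell (3 and 4 with size factors), with DLD, the E3 subunit, at 86.4 ± 0.688 TPM at 1% O2 and 256 ± 5.84 TPM at 20% O2 (-1.55), and PDHB, of E1, at 35.1 ± 0.774 and 65.9 ± 2.49 TPM (-0.89). The members that rose were the inhibitory kinases PDK1 (1.71) and PDK3 (0.98). Of 21 citric acid cycle genes 3 rose and 12 fell (6 and 5 with size factors), around a median of -0.33 that lay close to that of all rows. IDH3A, a subunit of isocitrate dehydrogenase, fell by 1.20 and MDH2, mitochondrial malate dehydrogenase, by 0.52. Of 25 nuclear-encoded subunits of the respiratory chain and ATP synthase 1 rose and 12 fell as TPM, but 6 rose and 4 fell with size factors. NDUFV1, of complex I, fell by 0.81, whereas ATP5F1B, of the ATP synthase, was at -0.27 as TPM and 0.15 with size factors. MT-CO1, the tested gene of the mitochondrial genome, was at 141, 136 and 169 TPM at 1% O2, against 128, 124 and 143 TPM at 20% O2, values that overlapped (0.17, limma adjusted p = 0.154). The MT-CO1 call was gained on the other scales, at 0.59 with size factors, 0.36 by quantile normalization and 0.34 by voom.

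The counts for mitochondrial protein synthesis and folding rested in part on the scaling. Of 20 genes of the mitochondrial ribosome and translation 15 fell and 1 rose (8 and 4 with size factors), with a median of -0.75. MRPS22, of its small subunit, was at 4.62, 4.19 and 6.16 TPM at 1% O2, against 18.8, 19.4 and 16.8 TPM at 20% O2 (-1.70), and MRPL3, of the large subunit, fell by 1.56. Of 25 genes of mitochondrial import, folding and mitophagy 19 fell and 3 rose, but with size factors 10 fell and 6 rose around a median of -0.08. The 3 that rose were the mitophagy receptors BNIP3, BNIP3L and FUNDC1 (0.59), while HSPD1, the chaperonin HSP60 of the matrix, was at 144 ± 13.8 TPM at 1% O2 and 546 ± 12.5 TPM at 20% O2 (-1.92).

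Ribosome biogenesis had the lowest median of the 40 lists: all 29 tested members fell by limma, with a median of -2.19, which was -1.83 from the median of all rows. With size factors 26 fell, 1 rose, POLR1C at 0.24, and the median was -1.8. MYC, the transcription factor that drives many of these genes, was at 27.7, 35.1 and 31.6 TPM at 1% O2, against 264, 298 and 308 TPM at 20% O2 (-3.17, SE 0.102, adjusted p = 1.11e-09). NOP58 was at 57.7, 71.8 and 57.8 TPM, against 651, 685 and 661 TPM, and RRP12 at 2.71, 2.64 and 2.07 TPM, against 48.8, 46.2 and 45.8 TPM. The lowest library at 20% O2 was many times the highest at 1% O2 for each of them. Cytosolic ribosomal proteins, the products assembled by this machinery, did not share the loss: of 40 tested, 4 rose and 19 fell as TPM, but 33 rose with size factors, and 6 rose and 23 fell by quantile normalization. Their log2 fold changes spanned only -0.46 to 0.57. RPL11 was at 2607, 2508 and 2581 TPM at 1% O2 and 1785, 1692 and 1708 TPM at 20% O2 (0.57), and RPS12 at 8206 ± 14.8 and 10807 ± 98.9 TPM (-0.40 as TPM, 0.02 with size factors). Pseudogene rows can share reads with these genes.

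RNA processing factors fell as well. Of 29 splicing factors 23 fell and 4 rose (22 and 6 with size factors), with a median of -0.92. SRSF3, a serine-arginine splicing factor, was at 46.4, 47.6 and 43.5 TPM at 1% O2, against 226, 246 and 231 TPM at 20% O2 (-2.33). TRA2B, a related splicing activator, was at 26.5 ± 0.85 TPM, against 135 ± 6.50 TPM (-2.31). Of 35 genes of RNA decay and 3' to 5' exonucleases, the class to which ISG20 belongs, 24 fell and 3 rose (20 and 4 with size factors). Their median was -0.68, against -0.358 over all rows, of which 45.5% fell (56.4% of those that match a mouse gene). DIS3, a catalytic subunit of the RNA exosome, was at 5.16 ± 0.447 TPM, against 36.0 ± 1.58 TPM (-2.59), and XRN2, the nuclear 5' to 3' exonuclease, at 218 ± 4.56 TPM, against 435 ± 8.10 TPM (-0.99).

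Genes of the amino acid response and tRNA charging fell: 24 of 26 as TPM, with CARS1 (-0.19) and SLC7A11 (-0.07) not passing, and 20 with size factors, where GARS1 was the member that rose (0.22). ATF4, the transcription factor of this response, was at 235, 229 and 241 TPM at 1% O2, against 689, 713 and 699 TPM at 20% O2 (-1.57, adjusted p = 5.04e-10). YARS1, the tyrosyl-tRNA synthetase, was at 59.2 ± 1.44 TPM, against 157 ± 0.719 TPM (-1.39). Folding genes of the endoplasmic reticulum went the other way in part, with 14 of 25 higher and 8 lower (15 and 4 with size factors). P4HB, protein disulfide isomerase and the beta subunit of collagen prolyl hydroxylase, rose to 350 ± 4.02 TPM at 1% O2, against 77.6 ± 4.93 TPM at 20% O2 (2.16). Of 19 cytosolic chaperones 6 rose and 11 fell (8 and 8 with size factors). The falls were near the share of 56.4% of rows that match a mouse gene, and the median of -0.43 near the -0.358 of all rows. The chaperonin subunits CCT4 (-1.32) and CCT3 (-1.66) fell.

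Replication genes fell, whereas the call of mitosis genes rested on the scaling. Of 33 genes of DNA replication and S phase 27 fell and 1 rose (21 and 1 with size factors), with a median of -1.18. PRIM1 was at 1.45, 1.07 and 1.48 TPM at 1% O2, against 22.7, 23.8 and 21.9 TPM at 20% O2, and MCM5, of the replicative helicase, at 17.5, 18.9 and 18.3 TPM, against 61.9, 66.7 and 66.2 TPM (-1.78). The member that rose was GINS2 (1.36). Of 25 mitosis genes 12 fell as TPM, but with size factors 2 fell and 6 rose, and the median of -0.37 lay 0.01 below that of all rows. CDC20, which activates the anaphase-promoting complex, was at 81.2 ± 6.11 TPM, against 174 ± 12.4 TPM (-1.09), and KIF11, a spindle kinesin, fell by 1.05. Of 23 nucleotide synthesis genes 20 fell (16 fell and 1 rose with size factors). ATIC, which completes purine synthesis, was at 19.3 ± 1.21 TPM, against 101 ± 6.21 TPM (-2.34), and PRPS1, which makes the ribose donor, at 55.2 ± 7.03 TPM, against 198 ± 6.46 TPM (-1.83). Of 17 p53 targets 11 fell and 1 rose (9 and 3 with size factors), with a median of -0.75. Of rows that match a mouse gene 56.4% fell and 15.5% rose as TPM. GADD45A fell by 1.57 and PLK2, a polo-like kinase, by 1.35, and the member that rose was CCNG2 (2.41).

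**Figure D3:**
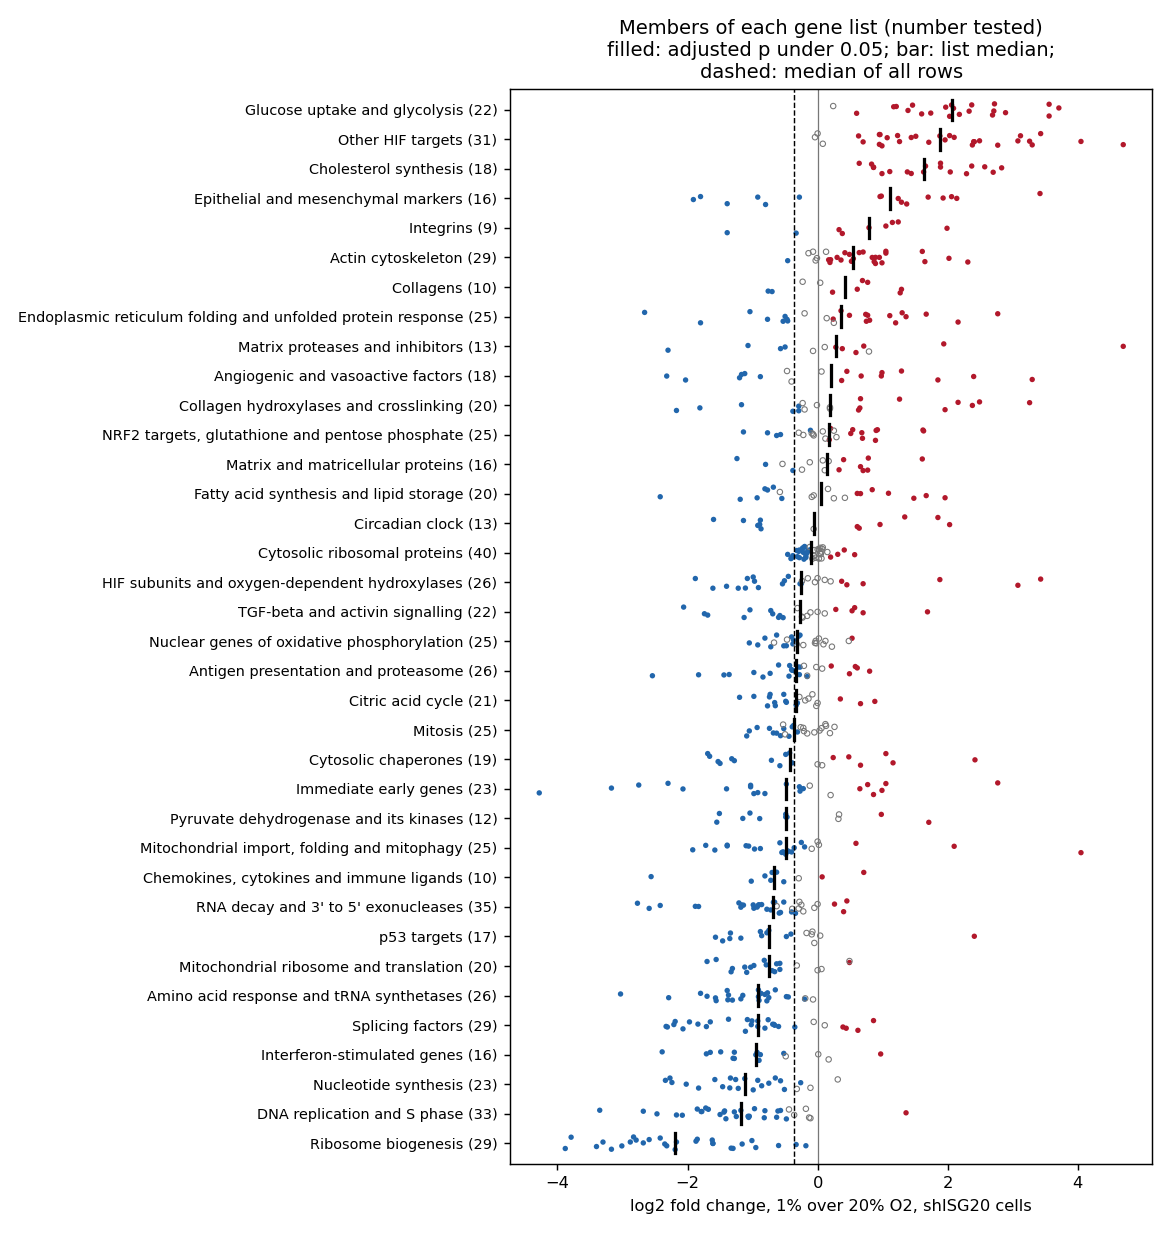
log2 fold change of 1% over 20% O2 in shISG20 cells for every tested member of 36 gene lists, ordered by median, with filled points for members past the threshold (red higher, blue lower) and open points for the others. The median runs from 2.07 for glucose uptake and glycolysis to -2.19 for ribosome biogenesis, and the dashed line is the median of all rows at -0.358.

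Cholesterol synthesis genes rose together: all 18 tested of 23 listed, from HMGCS1 to the sterol reductases and the sterol-sensing factors, were called higher as TPM, with size factors and by quantile normalization, with a median of 1.64. In the fit on the 6 shISG20 libraries alone, and without 20% O2 replicate 2 or 3, 17 were called. HMGCS1, which makes HMG-CoA, was at 91.2, 113 and 83.8 TPM at 1% O2, against 12.8, 13 and 15.8 TPM at 20% O2 (2.70, SE 0.124, adjusted p = 1.74e-08). Its libraries showed more spread at 1% than at 20% O2, with no overlap. Of 20 genes of fatty acid synthesis and lipid storage 7 rose and 7 fell (12 and 5 with size factors). SCD, the stearoyl-CoA desaturase, was at 52.6 ± 7.76 TPM, against 15.7 ± 1.8 TPM (1.67), and ACSL3, an acyl-CoA synthetase of lipid droplets, at 50.7 ± 1.04 TPM, against 23.3 ± 2.30 TPM (1.09). Of 25 genes of the NRF2 response, glutathione and the pentose phosphate pathway 11 rose and 5 fell (18 and 3 with size factors), among them FTH1, ferritin heavy chain (0.92), and TKT, transketolase (0.69).

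Collagen chains rose in shISG20 cells, with 6 of 10 higher and 2 lower (7 and 1 with size factors). COL1A1, of type I collagen, was at 296, 337 and 299 TPM at 1% O2, against 130, 106 and 146 TPM at 20% O2 (1.29, SE 0.123, adjusted p = 4.62e-06). COL16A1, a fibril-associated chain, was at 29.5 to 31.6 TPM, against 10.8 to 13.9 TPM (1.27). COL3A1 and COL6A2 were the members that fell (-0.70 and -0.76). By quantile normalization neither of them passed, with COL3A1 at -0.35. Of 20 collagen hydroxylases and crosslinking enzymes 9 rose and 6 fell (11 and 3 with size factors). P4HA1, the catalytic subunit of collagen prolyl hydroxylase and a HIF target, was at 285, 271 and 309 TPM, against 52.9, 53 and 57.9 TPM (2.38). Of 16 matrix and matricellular proteins 7 rose and 3 fell (10 and 2 with size factors). FBLN2, fibulin 2, was at 64.3 ± 8.18 TPM, against 20.3 ± 1.60 TPM (1.61), and CCN1, a matricellular ligand of integrins, at 3344 ± 135 TPM, against 1954 ± 54.3 TPM (0.77).

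Of 13 matrix proteases and inhibitors 6 rose and 4 fell (8 and 2 with size factors), with MMP2, gelatinase A, at the lower end: it was at 1.01, 2.72 and 2.40 TPM at 1% O2, against 12.1, 12.3 and 16.2 TPM at 20% O2 (-2.30). Of 9 integrins 7 rose and 2 fell (7 and 1 with size factors), among them ITGA5, a fibronectin receptor subunit, at 111 ± 3.28 TPM, against 46.5 ± 3.47 TPM (1.24), and ITGA6, a laminin receptor subunit, at 7.93 ± 0.532 TPM, against 1.26 ± 0.335 TPM (1.99). Actin and its binding proteins rose, 23 of 29 with 1 lower, TPM3 (-0.46), and 28 with size factors. CAPG, which caps actin filaments, was at 1250 ± 25.4 TPM, against 605 ± 22 TPM (1.05). Of 16 epithelial and mesenchymal markers 10 rose and 6 fell (10 and 5 with size factors), and those that rose came from both sides: VIM (2.14) with KRT8 (1.70) and KRT19 (3.42). Those that fell were the mesenchymal FN1 (-0.80), ZEB1 (-1.39), ZEB2 (-1.80), SNAI2 (-1.91) and PRRX1 (-0.28) and the junction protein TJP1 (-0.92), and PRRX1 did not pass with size factors. FN1, fibronectin, was at 332 ± 34 TPM at 1% O2 and 575 ± 19.4 TPM at 20% O2. Besides VIM, the mesenchymal markers TWIST1 and S100A4 had higher means at 1% O2. TWIST1 was at 135 ± 6.76 TPM, against 69.0 ± 1.2 TPM, and S100A4 at 243 ± 15.8 TPM, against 94.3 ± 16.8 TPM. The summed TPM of the 7 epithelial markers was 235 to 243 at 1% O2 and 48.5 to 58.0 at 20% O2, and that of the 7 mesenchymal markers, most of it VIM, 8671 to 8879 and 2455 to 2719.

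Signalling genes moved both ways. Their counts are to be read against all rows, of which 15.0% rose and 45.5% fell (28.1% and 28.5% with size factors). The immediate early and TGF-beta lists had medians of -0.48 and -0.27, near the -0.358 of all rows. Of 23 immediate early genes 6 rose and 15 fell (11 and 11 with size factors), with IER3, a stress-induced survival gene, at 272 ± 24.2 TPM at 1% O2 and 39.3 ± 4.13 TPM at 20% O2 (2.77), opposite to EGR1 and MYC. Of 22 genes of TGF-beta and activin signalling 5 rose and 10 fell (7 and 6 with size factors), among them the ligand BMP4, at 49.8 ± 1.70 TPM, against 211 ± 8.43 TPM (-2.06), and the receptor ACVR1 (-1.04). Of 13 clock genes 6 rose and 6 fell on both scales. BHLHE40, a clock repressor and HIF target, was at 133 ± 10.7 TPM, against 31.9 ± 2.61 TPM (2.03), and ARNTL, the activator also called BMAL1, at 10.1 ± 1.22 TPM, against 32.5 ± 0.838 TPM (-1.60).

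Of 16 tested interferon-stimulated genes 12 fell and 1 rose (10 and 1 with size factors), with a median of -0.94. Of all rows that match a mouse gene 56.4% fell and 15.5% rose as TPM. Coverage was thin, since 27 of the 43 listed were not tested. IFIH1, the RNA sensor MDA5, was at 1.74, 2.27 and 0.970 TPM at 1% O2, against 12.6, 13.8 and 11.7 TPM at 20% O2 (-2.39), and ADAR, which edits double-stranded RNA, at 2.82 ± 0.805 TPM, against 11.3 ± 0.701 TPM (-1.71). The member that rose was DHX58 (0.97). Of 26 genes of antigen presentation and the proteasome 17 fell and 5 rose as TPM, but 8 and 8 with size factors. Their median of -0.33 lay near the -0.358 of all rows. PSME3, a proteasome activator, was at 33.1 ± 4.68 TPM, against 196 ± 12.6 TPM (-2.54), and PSMC2, an ATPase of the 19S particle, at 90.0 ± 3.03 TPM, against 323 ± 16.8 TPM (-1.83). Of 10 tested chemokines, cytokines and immune ligands 2 rose and 7 fell (2 and 3 with size factors). CSF1, the macrophage growth factor, was at 35.6, 41.7 and 38.3 TPM, against 218, 234 and 245 TPM (-2.56), while MIF, a macrophage cytokine and HIF target, rose by 0.71. Replication-dependent histones were covered by 7 tested rows, of which H2AC14 (-1.98) and H2AC8 fell. Near-identical histone copies make these rows uncertain, and H2AC8 had 3 reads at 1% O2 and 17 at 20% O2 (a ratio of 5.16, exact 95% interval 1.49 to 27.5).

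The same contrast in shNTC cells called 1808 rows (13.5%) higher and 5385 (40.3%) lower. Rows called higher in both numbered 1422, which was 71.0% of the shISG20 list and 78.7% of the shNTC list, and rows called lower in both 4673, or 76.9% and 86.8%. The 2 contrasts share no library, and their log2 fold changes had a correlation of 0.813 across the 13355 rows, which are not independent. The test of the difference itself, the effect in shISG20 cells minus that in shNTC cells, called 1011 rows (7.57%), 380 (2.85%) above 0 and 631 (4.72%) below. With size factors 604 rows (4.52%) were above and 468 (3.5%) below, so the balance of directions rests on the scaling. The median difference of all rows moved from -0.086 as TPM to -0.015 with size factors. A difference above 0 on both scales is thus no independent support. Of the 1011 rows called as TPM 724 had the effect further from 0 in shISG20 cells, and 69 were called in opposite directions in the subclones. On that scale the median of all rows was also further from 0 in shISG20 cells (-0.358) than in shNTC cells (-0.286). The 724 were not counted again with size factors.

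**Figure D4:**
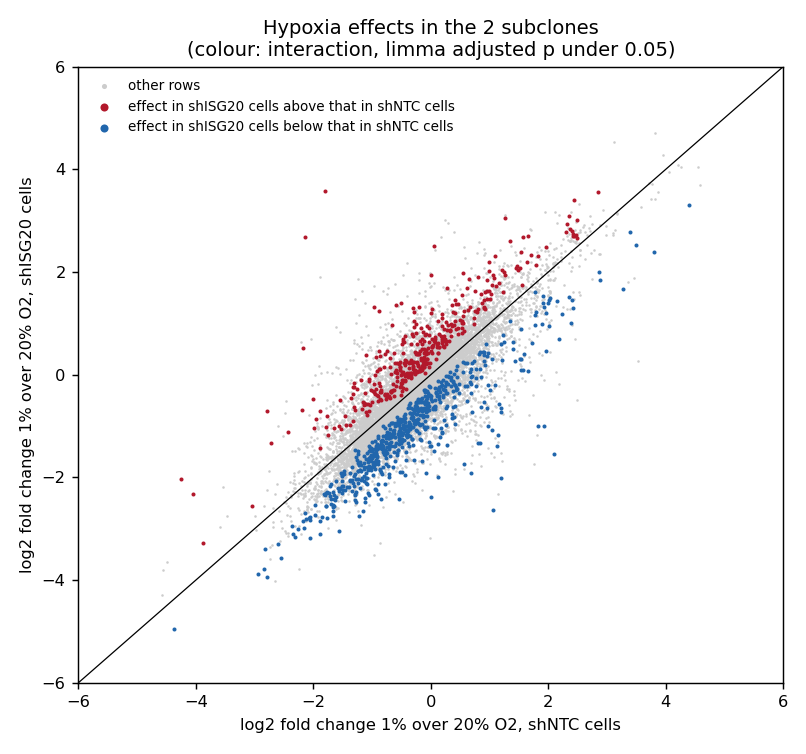
log2 fold change of 1% over 20% O2 in shISG20 cells (vertical) against that in shNTC cells (horizontal) for the 13355 tested rows, with the line of equal effects. Red points are the 380 rows and blue points the 631 rows whose effects differed by limma at an adjusted p under 0.05.

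Matrix genes differed between the subclones. Of the 10 collagen chains 6 rose and 2 fell in shISG20 cells, whereas 1 rose and 7 fell in shNTC cells (2 and 4 with size factors), and for 8 the difference was called, all 8 above 0 on both scales. COL1A1 rose in shISG20 cells (1.29) and stood in shNTC cells at -0.30 as TPM, which did not pass, and at 0.04 with size factors (277 ± 39.1 TPM at 1% O2 and 339 ± 14.9 TPM at 20% O2), a difference of 1.59 (SE 0.175, limma adjusted p = 0.000965). COL16A1 gave 1.27 and 0.03 (0.35 in shNTC cells with size factors, called), a difference of 1.24 (SE 0.129, adjusted p = 0.00091). COL3A1 gave -0.70 and -2.79, a difference of 2.09 (adjusted p = 0.00091), and was at 1.04 and 2.30 TPM in shISG20 cells against 0.789 and 11.4 TPM in shNTC cells at 1% and 20% O2. The starting levels thus differed too: COL1A1 was at 127 ± 20.4 TPM in shISG20 and 339 ± 14.9 TPM in shNTC cells at 20% O2, but at 311 ± 23.1 and 277 ± 39.1 TPM at 1% O2. Of 16 matrix and matricellular genes 8 differed, all above 0, with FBLN2 at 0.69. Of 20 collagen hydroxylases and crosslinking enzymes 5 differed (6 with size factors), also above 0, and P4HA1 was among them (2.38 in shISG20 and 1.54 in shNTC cells, a difference of 0.84, adjusted p = 0.00169). For comparison, 2.85% of all rows were called above 0.

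Cholesterol genes rose in both subclones, all 18 in each, with a median of 1.64 in shISG20 and 1.31 in shNTC cells. The difference was called for 3 (6 with size factors), with HMGCS1 at 1.04 (limma adjusted p = 0.00681) and FDFT1, squalene synthase, at 0.95 (limma adjusted p = 0.00271) among them. Ribosome biogenesis fell in both, with medians of -2.19 and -1.68. Over all rows 4.72% had a difference called below 0 (3.5% with size factors), and 12 of 29 members had the lower value in shISG20 cells while 1, NPM1, had the higher (10 and 1 with size factors). Among them NOP56 differed by -0.95 (SE 0.0985, adjusted p = 0.00091), MYC, which this list and that of immediate early genes both hold, by -0.86 (adjusted p = 0.00649) and RRP12 by -0.94. In the amino acid response 10 of 26 members differed, each with a lower value in shISG20 cells (9 below and 1 above with size factors), with ATF4 at -0.60. Of 33 replication genes 4 differed, again with lower values (4 below and 1 above with size factors), MCM5 by -0.82 among them. Glycolysis went both ways, with 3 members above and 4 below 0 (4 and 3 with size factors), ALDOC at 0.72 and GAPDH at 0.25 among those above.

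**Figure D5:**
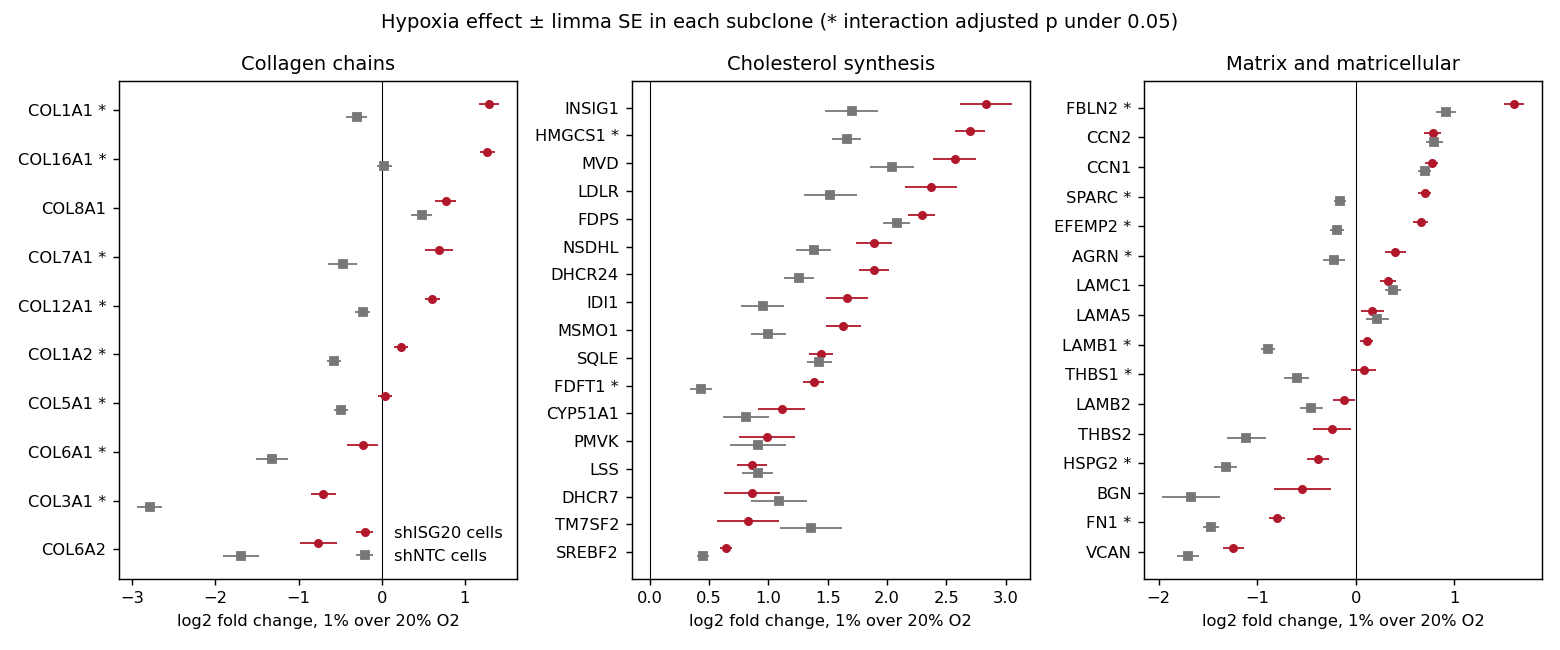
log2 fold change ± limma SE of 1% over 20% O2 in shISG20 cells (red circles) and shNTC cells (grey squares) for the tested collagen chains and matrix genes and 17 cholesterol synthesis genes, with stars where the difference passed at an adjusted p under 0.05. COL1A1 stands at 1.29 in shISG20 cells and at -0.30 in shNTC cells, and the 17 cholesterol genes lie above 0 in both.

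The genes with the largest differences below 0 were led by low rows. H2AC8 (-3.21) and PHLDA2, an imprinted growth regulator (-2.52), averaged at most 7.09 and 5.68 TPM in any group. PMM1, a phosphomannomutase, was at 20.7 ± 0.686 TPM at 1% O2 and 32.9 ± 1.75 TPM at 20% O2 in shISG20 cells, but at 40.7 ± 2.71 and 17.3 ± 1.02 TPM in shNTC cells, a fall of 0.64 beside a rise of 1.19 (difference -1.83, SE 0.11, limma adjusted p = 7.18e-05). HMOX1, the heme oxygenase that answers oxidative stress, was at 31.0 to 35.3 TPM at 1% O2, against 29.9 to 35.6 TPM at 20% O2 in shISG20 cells (0.08, limma adjusted p = 0.516, but called higher with size factors at 0.48 and by quantile normalization at 0.42), and at 69.2 ± 4.89 against 21.2 ± 1.59 TPM in shNTC cells (1.66), a difference of -1.59 (adjusted p = 0.000388). SRXN1, sulfiredoxin, differed by -1.74: it stood at 3.84 ± 0.531 and 6.23 ± 1.21 TPM in shISG20 cells, a fall whose call was lost without any 1 of the 6 libraries, and at 14 ± 3.54 and 5.65 ± 1.56 TPM in shNTC cells. SDF2L1, an endoplasmic reticulum protein, rose in both, by 1.67 and 3.28, with 37.8 ± 2.21 TPM in shISG20 against 10.2 ± 3.69 TPM in shNTC cells at 20% O2 (difference -1.61).

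Of the largest differences above 0, MIRLET7I (5.38) rested on few reads, and its call was lost in 8 of the 12 fits that left out 1 library (4.74 to 5.66). GDPD2, a glycerophosphodiester phosphodiesterase, had 0 reads at 1% O2 and 37 at 20% O2 in shISG20 cells, at least 11.2-fold lower, and was at 0.474 ± 0.0864 and 27.2 ± 3.76 TPM in shNTC cells (difference 2.22, lost with a pseudocount of 0.1 at 0.58 and by voom at 0.91). ANGPT1 likewise fell in both, to 0.121 against 4.60 TPM in shISG20 and to 0.552 against 24.5 TPM in shNTC cells, and its difference of 1.74 was lost with a pseudocount of 0.1 (0.79) and by voom (0.31). For these 2 genes the level at 20% O2 was lower in shISG20 cells and the level at 1% O2 near 0 in both. ADAMTSL4, an ADAMTS-like matrix protein, rose to 12.3 ± 1.97 against 0.650 ± 0.526 TPM in shISG20 and to 9.05 ± 0.79 against 3.26 ± 1.05 TPM in shNTC cells (difference 1.78). CIB2, a calcium-binding protein, rose in shISG20 cells (12.1 ± 0.738 against 5.86 ± 1.77 TPM, 0.97) and was at -0.67 in shNTC cells (difference 1.63).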

How the data were processed

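RNA was extracted from 12 EMT6 samples with TRIzol and DNase and sequenced on a NovaSeq instrument, per the labels' protocols. The authors deposited TPM values for 60683 human Ensembl rows. Per the submitters' processing notes FastQC, STAR, featureCounts and GRCh38 were used, with no roles or versions given. The use of a human build for mouse cells loses diverged genes and can spread reads over paralogs and pseudogene rows, and whether counting used strand is not given in the sources used here. Every value above 0 was a whole multiple of the value of 1 read of its gene in that library (100% within 0.01), which gave reads per row. Rows were matched to mouse genes by symbol or synonym, which left 5163 of the 13355 tested rows unmatched.

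Log2(TPM + 1) values of rows that reached 1 TPM in 3 or more of the 6 shISG20 libraries were fitted with limma 3.58.1 (R 4.3.3, with a variance trend) over all 12 libraries in 1 model. The contrasts were 1% minus 20% O2 in each subclone and the difference between these effects (shISG20 minus shNTC). P-values were adjusted by Benjamini-Hochberg over all rows, with a threshold of 0.05. The script was tested on simulated data. Low rows were given as recovered reads, with exact 95% intervals or a floor of 3 reads per group, which cover counting error only, since no molecular identifiers were used. The alternatives were other pseudocounts, filters and scalings (median-of-ratios size factors, quantile normalization, removal of 50 abundant rows with those of the mitochondrial genome). Others were mouse-matched rows only, a fit on the 6 libraries and no variance trend. Also run were voom on the recovered reads, a replicate block and leaving out each library.

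The genes named were ISG20 and the HIF subunits, the 12 highest and 12 lowest log2 fold changes among called rows that match a mouse gene, have 5 TPM in the higher group and do not overlap, 2 called members of each list by smallest p, the 6 highest and 6 lowest differences between subclones, and the rows with the largest rises (4) and falls (2) in mean TPM. Of these, 2 are not reported here. Genes outside this rule were chosen after their values were seen. The members and lists were chosen with earlier results of these data known.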

Additional observations from a re-analysis of the deposited data

Results flagged for a closer look

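For 52 of the 103 tested genes named by rule, the hypoxia effect in shISG20 cells differed from that in shNTC cells. The test was that of the difference itself (limma, adjusted p under 0.05 over all 13355 rows, of which 7.57% passed). The 6 highest and 6 lowest differences were named because they had passed, and most other genes for a large or clear hypoxia effect in shISG20 cells. The number 52 is therefore not to be compared with that share. All values are differences on the log2(TPM + 1) scale, shISG20 effect minus shNTC effect, with no cause tested.

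Differences above 0 in matrix and cytoskeletal genes were COL3A1 2.09, ADAMTSL4 1.78, COL1A1 1.59, COL16A1 1.24, P4HA1 0.84, FBLN2 0.69, TMSB10 0.48 and VIM 0.35. In lipid and glucose metabolism they were HMGCS1 1.04, ACSL3 0.91, ALDOC 0.72, TKT 0.51 and GAPDH 0.25. The others above 0 were MIRLET7I 5.38, GDPD2 2.22, ANGPT1 1.74, CIB2 1.63, SPNS2 0.98, CSF1 0.48, ATP5F1B 0.14 and RPS12 0.11.

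Differences below 0 in ribosome biogenesis, RNA processing and translation were DGCR8 -1.03, NOP56 -0.95, RRP12 -0.94, MYC -0.86, ATF4 -0.60, NOP58 -0.59, TRA2B -0.58, SRSF3 -0.50, YARS1 -0.35, XRN2 -0.18 and CNBP -0.18. In mitochondria and the chaperonin they were PDHB -0.58, MDH2 -0.54, CCT3 -0.40, HSPD1 -0.38, NDUFV1 -0.36 and DLD -0.32. In stress, secretory and proteasome genes they were SRXN1 -1.74, SDF2L1 -1.61, HMOX1 -1.59, NOS2 -1.08, PSMC2 -0.70, ERO1A -0.61 and PSME3 -0.56. At 20% O2 NOS2 had 2 reads in shISG20 and 1 in shNTC cells, so the size of its difference depends on the pseudocount. The others below 0 were H2AC8 -3.21, PHLDA2 -2.52, PMM1 -1.83, MCM5 -0.82, SLC24A3 -0.57, PLK2 -0.50 and CAPG -0.30. With size factors 4 of the 52 differences were no longer called: NDUFV1 (-0.28), DLD (-0.24), XRN2 (-0.10) and CNBP (-0.10).

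Leaving out 1 of the 12 libraries lost 11 of these calls at least once, with no change of sign. RPS12 was lost in 11 of 12 fits (0.10 to 0.12) and kept without shNTC 20% O2 replicate 1, and SLC24A3 in 11 (-0.63 to -0.49), kept without shNTC 1% O2 replicate 1. XRN2 was lost in 10 (-0.19 to -0.17) and kept without shISG20 1% O2 replicate 2 or shNTC 1% O2 replicate 3. SPNS2 was lost in 10 (0.81 to 1.04) and kept without shISG20 1% O2 replicate 3 or shISG20 20% O2 replicate 2. CNBP was lost in 9 (-0.19 to -0.16) and kept without shISG20 1% O2 replicate 2, shNTC 1% O2 replicate 3 or shNTC 20% O2 replicate 2. CSF1 was lost in 8 (0.43 to 0.49) and kept without shISG20 1% O2 replicate 1, shISG20 20% O2 replicate 3, shNTC 1% O2 replicate 2 or shNTC 20% O2 replicate 1. MIRLET7I was lost in 8 (4.74 to 5.66) and kept without any of the shNTC 1% O2 replicates or shNTC 20% O2 replicate 3. HSPD1 was lost in 6 (-0.38 to -0.36), without shISG20 20% O2 replicates 1 and 2, shNTC 1% O2 replicates 1 and 2 and shNTC 20% O2 replicates 2 and 3. PSME3 was lost in 6 (-0.56 to -0.53), without shISG20 1% O2 replicate 3, shISG20 20% O2 replicates 2 and 3, shNTC 1% O2 replicate 1 and shNTC 20% O2 replicates 1 and 3. NDUFV1 was lost in 5 (-0.36 to -0.33), without shISG20 1% O2 replicate 3, shISG20 20% O2 replicates 2 and 3, shNTC 1% O2 replicate 2 and shNTC 20% O2 replicate 1. DGCR8 was lost in 3 (-1.01 to -0.98), without shISG20 20% O2 replicate 2 or 3 or shNTC 20% O2 replicate 2.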

How the results depend on the processing

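The scaling moved the counts for hypoxia in shISG20 cells: 3747 rows were higher and 3800 lower with median-of-ratios size factors, and 3332 and 3979 by quantile normalization, against 2002 and 6073 as TPM. The size factors were 0.838 to 0.882 at 1% O2 and 1.13 to 1.15 at 20% O2. Leaving out 1 of the 6 libraries gave 1828 to 1889 higher and 5673 to 5891 lower rows, with 1882 and 5679 without the library whose label gives 484 hours. For the difference between subclones (380 rows above 0 and 631 below), size factors gave 604 above, and voom on the recovered reads 730 above and 1188 below. Leaving out 1 of the 12 libraries gave 256 to 341 above and 363 to 754 below. The count below fell by more than 1.5 times without shISG20 1% O2 replicate 1 (408), shISG20 20% O2 replicate 2 (363) or 3 (381), shNTC 1% O2 replicate 2 (373) or shNTC 20% O2 replicate 1 (416), 2 (412) or 3 (420).

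Of 1841 values of 103 named genes for hypoxia in shISG20 cells, 1815 kept direction and call, 16 lost the call, 6 gained it and 4 changed sign: HIF1A (0.17 with size factors, 0.04 by quantile normalization), ATP5F1B (0.15) and RPS12 (0.02), both with size factors. Of 1187 values of the 52 named differences, 1043 kept direction and call and 144 lost the call. For none of these results was the cause tested.

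Replicate numbers did not pair the libraries: deviations of same-numbered libraries at 1% and 20% O2 correlated at 0.025, 0.009 and -0.006 in shISG20 and at 0.027, -0.021 and -0.017 in shNTC cells. With the number as a replicate block 1946 rows were higher and 5881 lower in shISG20 cells, and 187 differences were above and 258 below 0, with 16 of the 52 named ones not passing.

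The reads summed to about 10691434 over the 3 libraries at 1% O2 and 11750430 at 20% O2. Genes with few recovered reads in a group had wide counting error, ISG20, EPAS1, MGARP, MIRLET7I, MIR708, RGS2, NOS2, CSF1R, H2AC8 and GDPD2 among them. Why their counts were low was not tested. ISG20 had 334 and 75 reads in shNTC cells at 1% and 20% O2.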
